A study of Schizosaccharomyces pombe with 4 samples.

Results

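The fission yeast gene shm1 (SPAC24C9.12c) encodes a serine hydroxymethyltransferase, the enzyme that moves a carbon unit from serine to tetrahydrofolate and leaves glycine. The methylene group carried by folate feeds the synthesis of thymidylate, purines and methionine, and through methionine that of S-adenosylmethionine, the methyl donor of the cell. Mkt1 regulates RNA after transcription and binds Ath1, the relative of budding yeast Pbp1, which is itself a partner of poly(A)-binding protein. RNA in contact with Mkt1 was mapped by CRAC, where UV light joins protein to RNA in living cells, the protein is purified through its tag, and the attached RNA fragments are converted to cDNA and sequenced. A base that carries a leftover of the cross-link can be skipped by reverse transcriptase, and so can appear as a deletion in the cDNA.

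The shm1 gene was chosen by its high number of cDNAs in the libraries of tagged Mkt1, so that its level there is a description, for which no p-value is given. Its members are the cDNAs on the minus strand of chromosome I that overlap the gene and carry its identifier. There were 704 of 24468 distinct cDNAs in Mkt1-HTP replicate 1 and 708 of 26899 in replicate 2. There were 2 of 1743 in control replicate 1 and 4 of 8142 in control replicate 2. It is 1 of 2111 genes with a cDNA in any of the 4 libraries.

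Cells of both groups were h+ and carried the reporter otr1R(Sph1):ade6+ at centromere repeats and the alleles ade6-210, leu1-32 and ura4D18. The Mkt1-HTP cells also had mkt1-HTP-KanR, which adds to Mkt1 an affinity tag of histidines and protein A with a protease site between them, and the control cells had no tag. Each group had 2 libraries, described by the labels as biological replicates, from cells grown at 32 °C in PMG medium lacking tryptophan and exposed to UV for 42.5 s. Same-numbered libraries of the groups carried the same sequencing index. Abundance of the shm1 mRNA was not analysed here, so that more RNA per cell and more binding per RNA cannot be told apart.

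The shm1 mRNA is a single exon of 1778 nt on the minus strand, at I:3069322-3071099 in the RefSeq annotation (ASM294v3), which held every cDNA the files (ASM294v2) name shm1 but 1. It has a 5′ UTR of 82 nt, a coding part of 1404 nt and a 3′ UTR of 292 nt at I:3069322-3069613. Positions in the 3′ UTR are given as nt after the stop codon, nt 1 being its first base. The windows of 30 nt below, read from the RefSeq reference genome (ASM294v3) and written 5′ to 3′ in the sense of the mRNA, are shown because the cDNAs of Mkt1-HTP pile up or end on them. Capitals mark each base deleted in 10 or more cDNAs of either Mkt1-HTP library.
nt 100 to 129, I:3069485-3069514, minus strand: uuucuuugcaaAAuugauuUgguuacauga
nt 154 to 183, I:3069431-3069460, minus strand: auacccauguguguGUcucucaacagaaac
nt 232 to 261, I:3069353-3069382, minus strand: acucuaauuuUUggcCAaAAugccaauuuu

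The first window holds the most covered base and the middle one a sharp stop of cDNAs at nt 163 and 164. The last one holds the second summit of coverage and nt 251, the most deleted base with both Mkt1-HTP libraries summed. In replicate 1 alone, nt 111 and 112 of the first window were each deleted in 27 cDNAs, against 17 at nt 251. The last window also contains the longest stretch of the 3′ UTR that equals its own reverse complement, UUUUGGCCAAAA at nt 240 to 251. Of 2129 3′ UTRs of at least this length, each cut to its last 292 nt, 15.1% held a self-complementary stretch as long. The 3′ UTR was 69.5% A and U, against 54.0% in the coding part and a median of 69.2% over the same stretch of the 2128 other genes.

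In CPM, cDNAs per 1000000 distinct cDNAs of the library, shm1 stood at 28772 in Mkt1-HTP replicate 1 and 26321 in replicate 2. It stood at 1147 in control replicate 1 and at 491 in control replicate 2. The Mkt1-HTP libraries were thus close to each other and both lay far above the control libraries, without overlap. The mean was 27546 ± 1733 CPM (SD, n = 2) in Mkt1-HTP and 819 ± 464 CPM (SD, n = 2) in the control, a ratio of means of 33.6. The control values rest on 2 and 4 cDNAs, whose exact Poisson 95% intervals reach from 139 to 4140 CPM and from 134 to 1260 CPM. These intervals, and all intervals given for shares, cover counting error only. Low control counts were not particular to shm1. Of 430 genes with 10 or more cDNAs over the 4 libraries, 250 had no control cDNA. The median fitted log2 fold change (edgeR) of the 430 genes was 4.73, against 5.33 for shm1. It was 0.07 with genes that had no control cDNA placed at their lower bound.

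Messenger RNA as a whole was a larger part of the Mkt1-HTP libraries, 48.2% and 41.6% of distinct cDNAs against 9.01% and 5.74% in the control. As a share of mRNA cDNAs, shm1 made up 5.97% (Wilson 95% interval 5.56 to 6.41) and 6.32% (5.89 to 6.79) in Mkt1-HTP. The shares in the control were 1.27% (0.35 to 4.53) and 0.857% (0.334 to 2.2). On this scale the groups still did not overlap, but the gap shrank. The fitted log2 fold change of shm1 went from 5.33 to 2.59 when only mRNA cDNAs made up the library size. The median over the 430 genes went from 4.73 to 4.54.

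Many cDNAs of shm1 differed from another by a few bases at an end or by a deletion. The 704 and 708 cDNAs had 653 and 582 distinct pairs of ends. When cDNAs with both ends within 3 nt of each other were counted once, 121 and 129 remained in the Mkt1-HTP libraries, while the control kept its 2 and 4. A cDNA count for shm1 can therefore not be taken as a count of independent molecules. Whether near-identical cDNAs came from separate molecules was not tested, and the intervals may be too narrow. For the position of cDNAs, the blocks of 3′ ends and the share with a deletion, values with such near-identical cDNAs counted once are given as well. This count joins chains of close cDNAs, and so lowers densely covered stretches most. The fitted log2 fold change was 2.85 on that count.

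The cDNAs of Mkt1-HTP lay for the most part in the 3′ UTR. In replicate 1, 656 of 704 cDNAs (93.2%, 91.1 to 94.8) had their middle there, and in replicate 2, 651 of 708 (91.9%, 89.7 to 93.7). The 3′ UTR is 16.4% of the mRNA. Per 100 nt it held 225 and 223 cDNAs, against 3.42 and 3.63 in the coding part. With near-identical cDNAs counted once, 99 of 121 (81.8%) and 107 of 129 (82.9%) were in the 3′ UTR, a lower share in both libraries.

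In the control, 1 of 2 cDNAs lay in the 3′ UTR in replicate 1 and 4 of 4 in replicate 2. The mean share was 92.6% ± 0.872 in Mkt1-HTP and 75% ± 35.4 in the control (SD, n = 2 each), and the control values lay on either side of those of Mkt1-HTP. The difference of 17.6 percentage points did not exceed this spread (exact permutation test over libraries, two-sided, p = 1.0, where the smallest p that 2 against 2 allow is 0.333). Without control replicate 1 the difference was -7.43 points. The few control cDNAs thus do not give a position profile of the background on shm1.

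**Figure D1:**
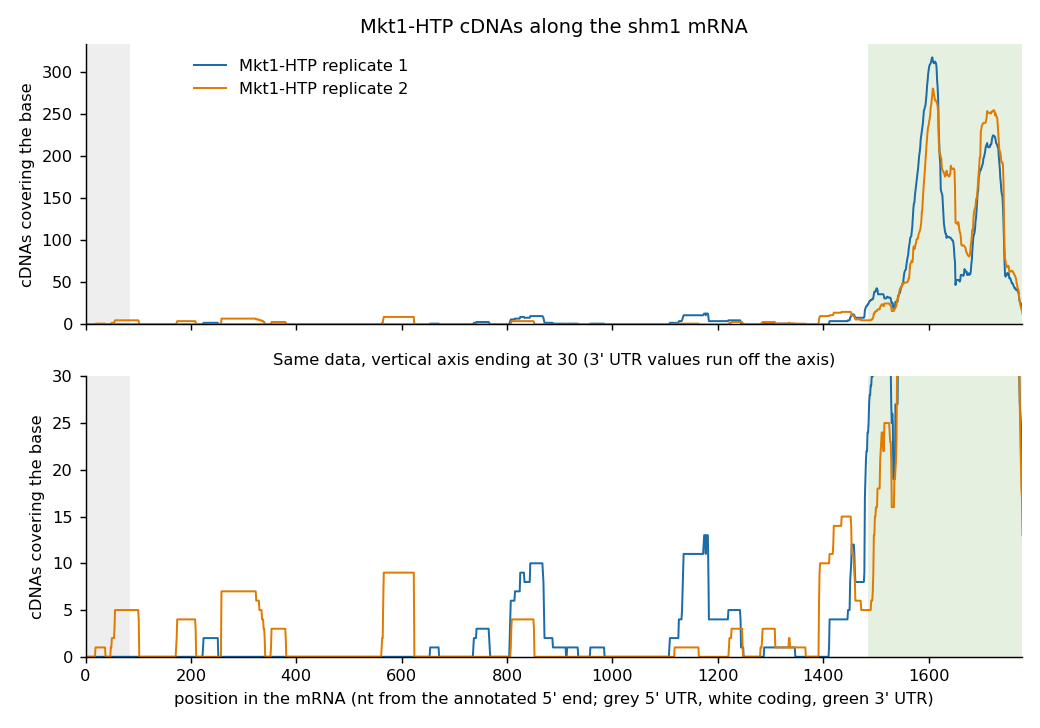
Number of Mkt1-HTP cDNAs covering each base of the shm1 mRNA (vertical axis) against position in nt from the annotated 5′ end (horizontal axis), with a line for each replicate; the lower panel repeats the data with its vertical axis ending at 30 cDNAs. Coverage reaches 318 and 281 cDNAs in the 3′ UTR, at the right, and at most 25 and 15 in the coding part, where only some peaks of the replicates meet.

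All 292 bases of the 3′ UTR were covered in both Mkt1-HTP libraries, and the profile had a pair of summits. The highest base was nt 121 in replicate 1, covered by 318 cDNAs, and nt 122 in replicate 2, covered by 281. The second summit was at nt 237 with 225 cDNAs in replicate 1 and at nt 238 with 255 cDNAs in replicate 2. The summits of the replicates therefore fell within 1 nt of each other. When near-identical cDNAs were counted once, the most covered base moved to nt 164 in replicate 1 and nt 142 in replicate 2. The exact base thus depends on how near-identical cDNAs are counted.

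The stretch around the first summit that kept at least 50% of its coverage ran from nt 89 to 137 in replicate 1 and from nt 103 to 164 in replicate 2. Around the second it ran from nt 202 to 256 and from nt 200 to 256. The distal edge at nt 256 was thus the same in both libraries, and the proximal summit of replicate 2 was wider on its 3′ side. Between the summits, coverage fell to 47 cDNAs at nt 165 in replicate 1 and to 81 at nt 191 in replicate 2.

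Divided at nt 191, the lowest point between the summits of the summed profile, the proximal part held 401 of 656 3′ UTR cDNAs in replicate 1 (61.1%, 57.3 to 64.8). In replicate 2 it held 379 of 651 (58.2%, 54.4 to 61.9), an interval that overlaps that of replicate 1. The shares were 67.7% and 65.4% with near-identical cDNAs counted once. All 5 control cDNAs of the 3′ UTR, 1 and 4 by replicate, had their middle in the proximal part. Coverage of the replicates correlated at r = 0.881 over the 292 bases of the 3′ UTR and at r = 0.156 over the 1486 other bases of the mRNA. These correlations are descriptions, since neighbouring bases share cDNAs.

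**Figure D2:**
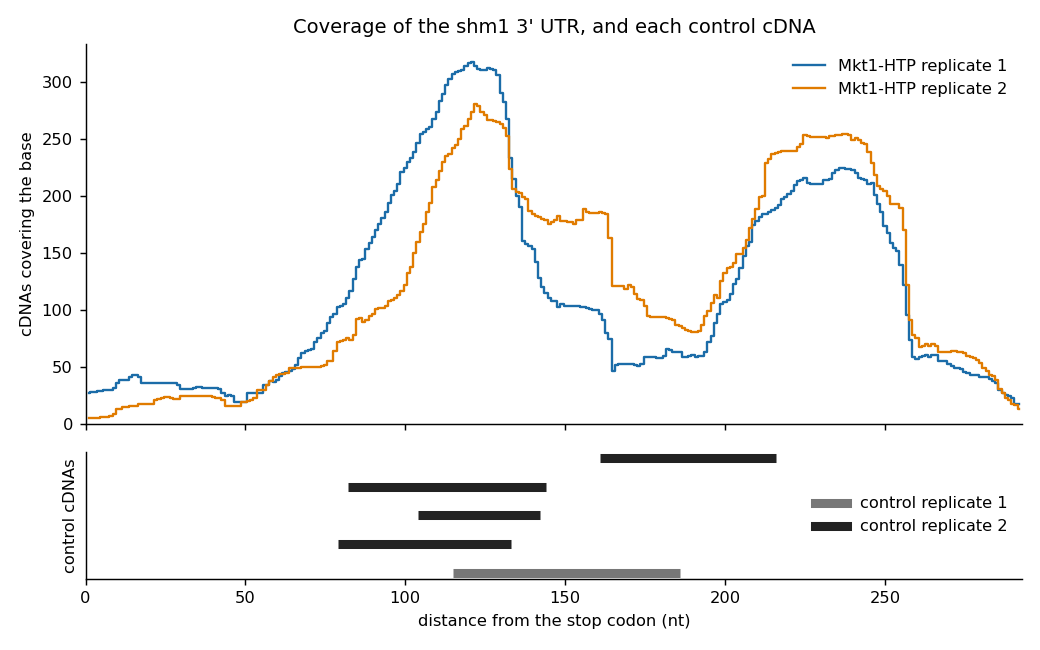
Upper panel, number of cDNAs covering each base of the shm1 3′ UTR (vertical axis) against distance from the stop codon in nt (horizontal axis), 1 line for each Mkt1-HTP replicate. Lower panel, each control cDNA of the 3′ UTR as a bar from its first to its last base. Both lines have summits near nt 121 and nt 237, and replicate 2 keeps a shoulder up to nt 164.

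The 3′ ends of cDNAs gathered in 3 short blocks, found as positions with 15 or more ends in either Mkt1-HTP library, joined where they lay within 4 nt. The proximal block, nt 129 to 136, held the 3′ ends of 160 cDNAs in replicate 1 (22.7%, 19.8 to 26.0) and 82 in replicate 2 (11.6%, 9.43 to 14.1). The middle block, nt 163 and 164, held 40 (5.68%, 4.2 to 7.64) and 66 (9.32%, 7.39 to 11.7). The distal block, nt 255 to 258, held 85 (12.1%, 9.87 to 14.7) and 113 (16%, 13.4 to 18.8). All 3 blocks were present in both libraries. With near-identical cDNAs counted once, they held 6, 7 and 7 of 121 in replicate 1 and 4, 3 and 8 of 129 in replicate 2. The intervals of the replicates then overlapped for each block. Counts this small give wide intervals, and this way of counting joins piled-up ends. It therefore cannot decide whether block sizes differ between the libraries.

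The most frequent 3′ end was nt 132 in replicate 1, with 36 cDNAs against 29 in replicate 2. It was nt 256 in replicate 2, with 48 cDNAs against 27 in replicate 1. The last base of a cDNA was A in 38.2% and 41.9% of cDNAs, against 25.2% and 26.4% of all bases the cDNAs covered. Both nt 132 and nt 256 are A, so that piled-up ends add to this share. Its value with each position counted once is not given here.

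The 5′ ends were more dispersed. They fell on 200 positions in replicate 1, with at most 15 cDNAs at a position, and on 187 positions in replicate 2. In replicate 2, 29 cDNAs began at nt 213, of which 26 had a deletion and which ended at 16 different 3′ ends, and none began there in replicate 1. The first base was U in 41.9% and 47.5% of cDNAs, against 43.1% and 42.0% of covered bases. The cDNAs had a median length of 51 nt (17 to 152) in replicate 1 and 52 nt (17 to 171) in replicate 2.

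**Figure D3:**
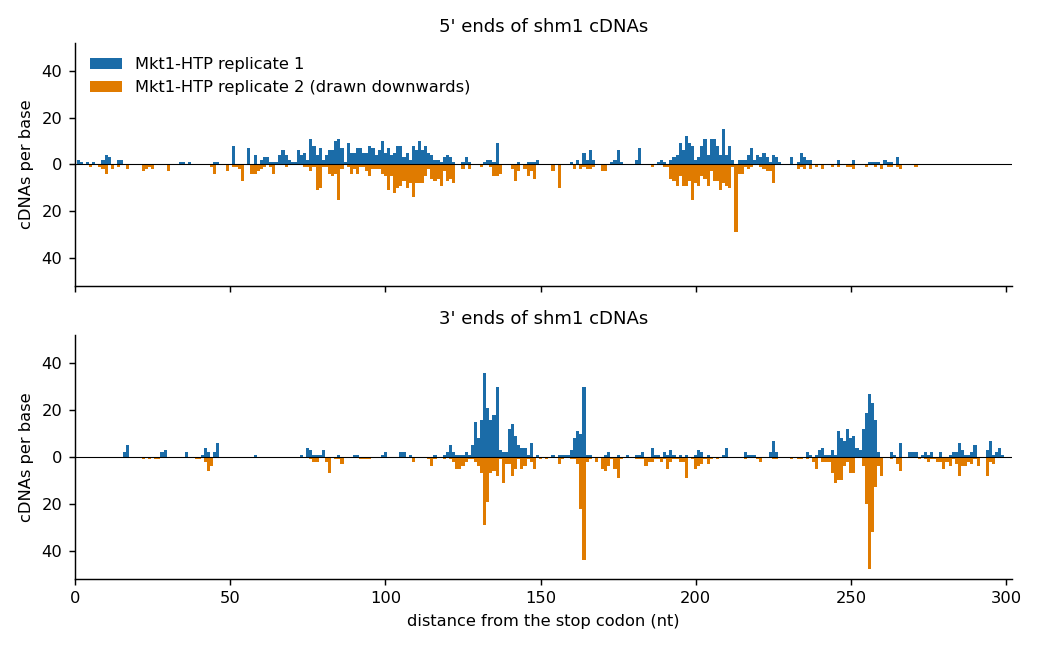
Number of shm1 cDNAs with their 5′ end (upper panel) or 3′ end (lower panel) at each base, against distance from the stop codon in nt, with Mkt1-HTP replicate 1 drawn upwards and replicate 2 downwards. The 3′ ends gather at nt 129 to 136, nt 163 and 164 and nt 255 to 258 in both libraries, while 5′ ends spread and reach 29 at nt 213 in replicate 2 alone.

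A deleted base was present in 100 of 704 shm1 cDNAs in Mkt1-HTP replicate 1 (14.2%, 11.8 to 17.0) and in 245 of 708 in replicate 2 (34.6%, 31.2 to 38.2). The control cDNAs had none, 0 of 2 and 0 of 4, which at this depth allows shares up to 65.8% and 49.0%. The mean was 24.4% ± 14.4 in Mkt1-HTP and 0.0% ± 0.0 in the control (SD, n = 2 each; exact permutation test, two-sided, p = 0.333, the smallest p possible). A difference between the groups was thus not detectable with 2 libraries each.

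Other mRNAs in the same libraries also had more deletions in replicate 2. Their share was 13.5% (12.8 to 14.1) in Mkt1-HTP replicate 1 and 24.2% (23.4 to 25.1) in replicate 2, and 3.87% and 23.5% in the controls of the same number. With near-identical cDNAs counted once, a set of them was scored as deleted where any of its cDNAs had a deletion. On that count 25 of 121 sets (20.7%, 14.4 to 28.7) and 40 of 129 (31%, 23.7 to 39.4) had a deletion, with intervals that overlap. Such a share of sets can rise with the size of the sets and is not a share of cDNAs. With each 5′ end given the same weight, the shares were 10.5% and 23.8%. Replicate 2 had the higher share on each of these scales.

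Some bases of the 3′ UTR were deleted in many cDNAs. In all, 16 bases were deleted in 10 or more cDNAs of a Mkt1-HTP library, all in the 3′ UTR, outside of which only 86 and 65 bases were covered by as many as 10 cDNAs. Of the cDNAs centred outside the 3′ UTR, 3 of 48 and 15 of 57 had a deletion. Of the 16 bases, 3 were deleted in 10 or more cDNAs in both libraries, nt 243, 250 and 251, all within the self-complementary stretch at nt 240 to 251. A further 2 did so in replicate 1 only and 11 in replicate 2 only. Neighbouring bases lost by the same cDNA were counted as separate bases.

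The base deleted in the largest share of these 3 was nt 251, an A, which was missing from 17 of 168 covering cDNAs in replicate 1 (10.1%) and 33 of 200 in replicate 2 (16.5%). The carriers had 12 distinct 5′ ends in replicate 1 and 9 in replicate 2. At nt 243, a U, the deletion was in 16 of 215 cDNAs (7.44%) from 12 distinct 5′ ends, and in 30 of 247 (12.1%) from 18. At nt 250, an A, it was in 10 of 174 (5.75%) from 7 distinct 5′ ends, and in 25 of 205 (12.2%) from only 3. Deletions at nt 243 and 251 thus came from several different cDNA starts in each library, and those at nt 250 from few in replicate 2. With near-identical carriers counted once, 7 and 7 remained at nt 243, 5 and 4 at nt 250, and 11 and 8 at nt 251. On that count none of these bases reached 10 in both libraries. In replicate 1, all 10 cDNAs that lacked nt 250 also lacked nt 251, and in replicate 2, 13 cDNAs lacked this pair alone. The bases nt 250 and 251 are thus not separate observations. Bases 248 to 251 form a run of 4 A and bases 239 to 243 a run of 5 U, and which base of a run is missing cannot be told apart in an alignment.

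Other bases were deleted in 10 or more cDNAs in a single library. The pair of A at nt 111 and 112, within a run of 4 A and 9 nt before the highest base, was deleted in 27 of 290 cDNAs at nt 112 in replicate 1 (9.31%, 11 distinct 5′ ends) and in 2 of 230 in replicate 2 (0.87%, 1 distinct 5′ end). The U at nt 119 showed the opposite, with 2 of 314 (0.637%) in replicate 1 and 27 of 262 in replicate 2 (10.3%, 12 distinct 5′ ends). The U at nt 217 was deleted in 1 of 192 cDNAs in replicate 1 and in 26 of 239 in replicate 2 (10.9%), but these came from 5 distinct 5′ ends. The highest share at any of the 16 bases was 33.3% at nt 54 and 55 in replicate 2, on 30 covering cDNAs, against 0 of 27 in replicate 1.

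The bases lost also differed between replicates. Of 182 deleted bases in replicate 1, 57.1% were A and 27.5% U. Of 419 in replicate 2, 28.4% were A and 52.5% U. Covered bases were 25.2% A and 43.1% U in replicate 1, and 26.4% A and 42.0% U in replicate 2. The pair of A at nt 111 and 112 made up 54 of the deleted bases in replicate 1 and 4 in replicate 2, and without this pair 39.1% were A and 39.1% U in replicate 1. In replicate 2 the shares without the pair were 27.7% A and 53.0% U, so that the replicates still differed. The composition in replicate 1 thus rested in part on this pair.

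**Figure D4:**
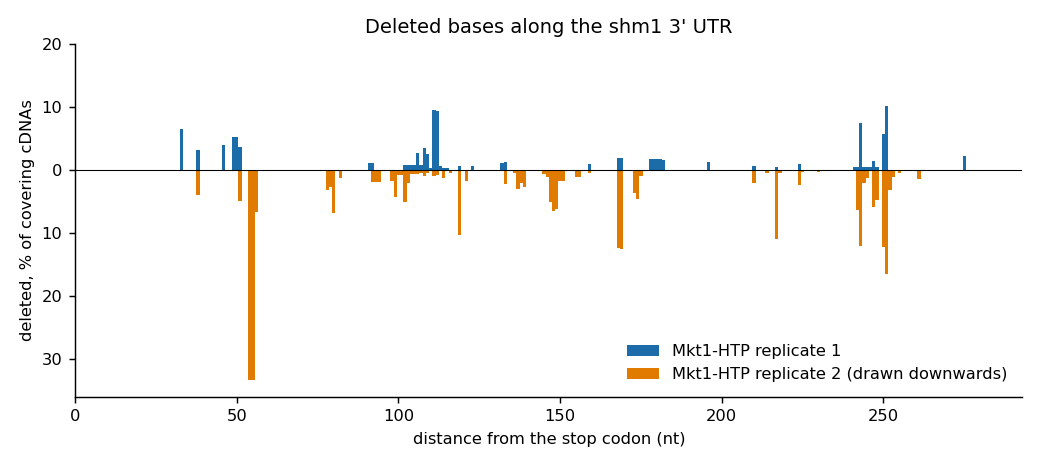
Share of covering cDNAs in which a base was deleted (vertical axis, percent) against distance from the stop codon in nt, with Mkt1-HTP replicate 1 drawn upwards and replicate 2 downwards. The bars near nt 243 and nt 251 are present in both libraries. Those at nt 111 and 112 are tall in replicate 1 only, and those at nt 54, 119, 169 and 217 in replicate 2 only.

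In the coding part, 509 of 1404 bases were covered in replicate 1 and 530 in replicate 2, with at most 25 and 15 cDNAs at a base. The cDNAs centred outside the 3′ UTR formed 9 groups of overlapping cDNAs in replicate 1 (48 cDNAs) and 11 in replicate 2 (57 cDNAs). Of these groups, 4 and 5 met a cDNA group of the other library, holding 83.3% and 49.1% of the cDNAs. The groups met in both libraries lay at or beyond nt 805 of the mRNA. The largest group of replicate 1, 16 cDNAs at nt 1108 to 1248 of the mRNA, met 4 cDNAs in replicate 2.

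Few cDNAs lay near the start of the mRNA. Replicate 2 had 6 of 708 centred in the 5′ UTR (0.847%, 0.389 to 1.84), 5 of which overlapped each other, and replicate 1 had 0 of 704, with an interval up to 0.543% that overlaps that of replicate 2. Across the stop codon ran 25 cDNAs in replicate 1 and 5 in replicate 2. At the other end, 18 and 13 cDNAs extended past the annotated end of the gene, by at most 7 and 4 nt. No cDNA lay antisense to shm1 in any of the 4 libraries.

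The 6 control cDNAs could be placed one by one. In control replicate 1, a cDNA of 66 nt lay in the coding part and another covered nt 115 to 186 of the 3′ UTR. In control replicate 2 they covered nt 79 to 133, nt 104 to 142, nt 82 to 144 and nt 161 to 216. Of the 6, 5 had exactly the ends of a cDNA in the same-numbered Mkt1-HTP library, whose sequencing index they share. The cDNA at nt 161 to 216 did not.

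Among other mRNA cDNAs, 33 of 155 in control replicate 1 (21.3%) had the ends of a cDNA in Mkt1-HTP replicate 1, and 6 (3.87%) those of one in replicate 2. In control replicate 2, 29 of 463 (6.26%) matched the same number and 23 (4.97%) the other. For shm1, 2 of the 6 matched the other number. Whether control cDNAs of shm1 came from the pool they shared with a tagged library was not tested. Leaving out those with shared ends leaves a single control cDNA.

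The 1-carbon genes around shm1 were compared across all genes with edgeR's quasi-likelihood test, on 430 genes with 10 or more cDNAs over the 4 libraries. Of all tested genes, 2.79% had more cDNAs in Mkt1-HTP and 1.63% had more in the control, at a Benjamini-Hochberg adjusted p of 0.05. The list has 17 genes, of which 10 had a cDNA and 7 could be tested. Leaving aside shm1, which was chosen by this contrast, 4 of 6 were higher in Mkt1-HTP and 0 lower (5 of 7 with shm1). The median log2 fold change was 5.57 over these 6 and 4.73 over all 430 genes. With genes that had no control cDNA placed at their lower bound, the medians were 3.57 and 0.07. The list was drawn up with earlier results of these data known, so that its count is no independent evidence. Moreover, gcv1, gcv2, gcv3, thf1 and met9 had fewer than 10 cDNAs in the control and met the filter only through Mkt1-HTP. A lower value in Mkt1-HTP could hardly have been called for them, and their adjusted p-values below are given as a description.

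Of the glycine cleavage system, which breaks glycine down into a 1-carbon unit on folate, carbon dioxide and ammonia, 2 of 3 genes tested passed. The T protein gene gcv1 had 215 and 229 cDNAs in Mkt1-HTP and none in the control, at least 28.5-fold higher against a floor of 3 counts over the control group (edgeR adjusted p = 0.00026). The P protein gene gcv2 had 324 and 281 against 3 and 0 (log2 fold change 4.61, adjusted p = 0.006). The H protein gene gcv3 had 195 and 181 against 3 and 1 and did not pass the test (log2 fold change 3.58, adjusted p = 0.081). All cDNAs of gcv3 in Mkt1-HTP lay in the 3′ UTR.

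Of the genes that supply or use the units of shm1, ser3, which encodes the enzyme of the first step of serine synthesis, had 566 and 432 cDNAs against 7 and 3 (log2 fold change 3.53, adjusted p = 0.006). The gene of the C1-tetrahydrofolate synthase, thf1, had 89 and 96 against 0 and 0, at least 11.9-fold higher (adjusted p = 0.011). The methylenetetrahydrofolate reductase gene met9 had 10 and 29 against 0 and 0, at least 2.45-fold higher, and did not pass (adjusted p = 0.31). In these genes the share of cDNAs in the 3′ UTR was 97.3% and 98.4% for ser3, 95.5% and 96.9% for thf1, and 90.0% and 93.1% for met9, beside 93.2% and 91.9% for shm1.

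These calls depend on the design and on the libraries. With replicate number as a block, which the shared index pairs, 4 genes were higher in Mkt1-HTP in place of 12, and 0 of the 6 other 1-carbon genes passed. In that paired edgeR fit the adjusted p was 0.066 for gcv1, 0.19 for gcv2, 0.11 for ser3 and 0.57 for thf1. Over all 11 alternatives it ranged from 1.5e-15 to 0.47 for gcv1, from 2e-16 to 0.7 for gcv2, from 9.6e-14 to 0.7 for ser3 and from 8.8e-10 to 0.57 for thf1. For gcv3, which did not pass, it ranged from 1e-12 to 0.85 and passed in 4 of the 11, and for met9 from 0.11 to 0.77. With the library size taken over mRNA cDNAs, or with either Mkt1-HTP library left out, no 1-carbon gene passed.

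The mRNAs most like shm1 in level over the 4 libraries, by Euclidean distance of log2(CPM + 100), were ser3 (1.92), met26 (2.64), sam1 (2.66), gcv3 (3.08) and gcv2 (3.14). Of these, met26 encodes methionine synthase, which takes up a methyl group from folate, and sam1 the S-adenosylmethionine synthetase. Along with SPBC8D2.18c, which encodes the adenosylhomocysteinase, met26 and sam1 were compared with shm1 for the position of cDNAs and for deletions.

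The 3′ UTR share of shm1, 93.2% and 91.9%, lay below that of sam1 (97.3% and 98.6%) and above that of met26 (81.8% and 80.9%) in both replicates. The shares of SPBC8D2.18c were 95.7% and 94.9%. These shares were not scaled by length. The 3′ UTR took up 25.6% of the gene in sam1, 16.4% in shm1 and 9.05% in met26, with SPBC8D2.18c between shm1 and met26. Sam1, shm1 and met26 thus had the same order by share as by extent of the 3′ UTR. Their shares, on either count, do not rank how strongly cDNAs gather there. With near-identical cDNAs counted once, shm1 had 81.8% (74.0 to 87.7) and 82.9% (75.5 to 88.5), sam1 85.9% (79.1 to 90.8) and 90.3% (84.4 to 94.2), and SPBC8D2.18c 83.0% (73.8 to 89.4) and 86.1% (78.3 to 91.4), with overlapping intervals. On that count met26 had 52.3% (45.3 to 59.1) and 59.1% (51.8 to 66.0), below shm1 in both replicates without overlap. Over all other mRNAs with an annotated 3′ UTR the share was 69.2% and 68.8% in the Mkt1-HTP replicates, against control values of 53.6% and 26.7%. Between mRNAs of the same 2 libraries, an exact paired permutation test cannot give a p under 0.5.

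The share of cDNAs with a deletion was 26.2% and 32.3% for sam1, 10.1% and 22.3% for met26, and 8.29% and 17.3% for SPBC8D2.18c. In all 4 mRNAs the share was higher in replicate 2. With near-identical cDNAs counted once, a set again being scored as deleted where any of its cDNAs was, the values are shares of sets. They were 25.2% and 25.5% for sam1, 14.7% and 38.1% for met26, and 18.2% and 32.4% for SPBC8D2.18c. On that count the interval of shm1 overlapped that of each of them in both replicates.

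At the most covered base, shm1 had 45.2% and 39.7% of its cDNAs, sam1 45.1% and 46.6%, met26 47.3% and 41.0%, and SPBC8D2.18c 65.4% and 67.3%. That base was 171 and 170 nt before the annotated end of the gene in shm1, 83 nt in sam1, 87 and 85 nt in met26, and 96 and 92 nt in SPBC8D2.18c. In shm1 the highest summit was therefore farther from the end than in the other mRNAs, and its second summit was 55 and 54 nt from the end.

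**Figure D5:**
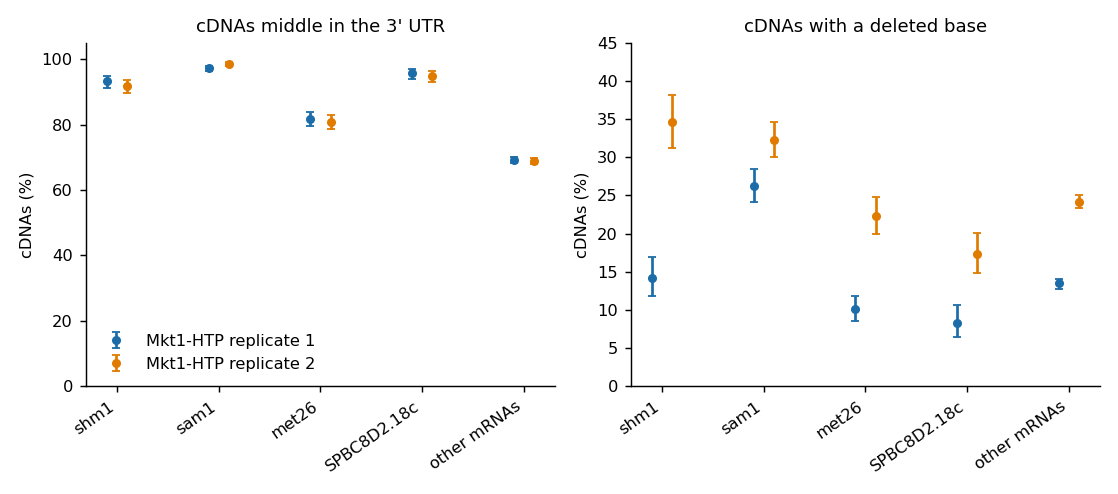
Share of cDNAs in the 3′ UTR (left) and share with a deleted base (right), in percent, for shm1, sam1, met26, SPBC8D2.18c and all other mRNAs, with a point for each Mkt1-HTP replicate and Wilson 95% intervals as bars. For shm1 the left panel shows 93.2% and 91.9%, above the 69.2% and 68.8% of other mRNAs, and the right panel shows the gap between 14.2% and 34.6%.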

How the data were processed

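CRAC libraries of Mkt1-HTP and untagged cells (2 each) were analysed from the deposited files. Per the file headers and the study's methods, the authors used pyCRAC for demultiplexing and for duplicate removal and Flexbar for adapters, filtered tRNA with STAR 2.7.1a, aligned reads by Novoalign 3.09.02 (genome build ASM294v2) and counted them with pyReadCounters (Counters 1.4.4), with deletions as the one kind of mutation kept. The deposited counts are 1 per row, a row being a distinct cDNA. For Mkt1-HTP 1 and 2 and control 1 and 2 the totals were 24468, 26899, 1743 and 8142, and the headers give 544192, 483073, 27996 and 135763 mapped cDNAs. Depth limits the control, where 3 counts are 0.172% and 0.0368% of the libraries.

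Groups came from the titles. Members and lists were chosen with earlier results of these data known. Further cDNAs were assigned by strand overlap with RefSeq genes (ASM294v3, chromosome I of 5579133 bases), except mitochondrial ones, which kept the deposited name. In Mkt1-HTP replicate 1, 1 cDNA named shm1 lay 66 nt upstream of the gene and was left out. All 1749 windows of 30 nt of the mRNA occur once on the 3 chromosomes.

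Genes with 10 or more cDNAs in all were tested with edgeR 4.0.16 in R 4.3.3 (glmQLFit, glmQLFTest, two-sided, library size all distinct cDNAs, group only), and DESeq2 1.42.0 was an alternative. The script was tested on simulated counts. With 2 libraries a group, p-values measure a spread pooled over genes. Shares had Wilson 95% intervals (scipy 1.17.1) and exact permutation tests over libraries. Named were shm1, the 1-carbon genes tested, sam1, met26 and SPBC8D2.18c, the 5 nearest genes, the neighbours and shm2.

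Same-numbered libraries shared a sequencing index per the labels, which pairs them. Deviations from group means correlated at 0.049 over 430 genes, and at -0.054 over 29 genes with 10 or more control cDNAs. Alternatives changed library size, tool, filter, pairing, counting unit, gene assignment, position rule and the libraries used.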

Additional observations from a re-analysis of the deposited data

How the results depend on the processing

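Of 430 genes, 12 had more cDNAs in Mkt1-HTP and 7 had fewer. With mRNA cDNAs as library size these were 0 and 7, with TMM 10 and 4, with no filter beyond 1 cDNA 10 and 2, with DESeq2 10 and 1, and with a replicate block (paired fit) 4 and 3. Leaving out 1 library gave 0 (without Mkt1-HTP replicate 1), 1 (without Mkt1-HTP replicate 2), 28 (without control replicate 1) and 13 (without control replicate 2) higher in Mkt1-HTP, a range of 0 to 28, and 3 to 7 higher in the control. Members of the 1-carbon list that passed, shm1 included, fell from 5 to 0 with mRNA library size and to 1 with the replicate block, and ranged from 0 to 6 with a library left out. The log2 fold change of shm1, a description, was 5.33, went to 2.59 with mRNA library size and 2.85 with near-identical cDNAs once, and ranged from 4.58 to 5.79 with a library left out, 4.58 being without control replicate 2. The cause of these shifts was not tested.

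The difference in 3′ UTR share, 17.6 points, was -7.43 without control cDNAs of shared ends, which leaves 1 control cDNA, and -7.43 to 42.6 with a library left out. It was 7.38 with near-identical cDNAs once, 7.66 with 5′ ends given the same weight (chosen after seeing the data) and 17.6 within replicate number (replicate block). The difference in deletion share, 24.4 points, was 17.1 to 26.7 in the other settings, 24.4 in the replicate block and 14.2 to 34.6 with a library left out. The most covered base of replicate 1, nt 121, was nt 164 with near-identical cDNAs once, nt 122 with libraries summed and nt 127 with 5′ ends given the same weight, and that of replicate 2, nt 122, was nt 142 with near-identical cDNAs once. The most deleted base of replicate 1, nt 112, was nt 251 in the first 2 of these settings. That of replicate 2, nt 251, was nt 169 with near-identical cDNAs once and nt 55 with 5′ ends given the same weight. Counting near-identical cDNAs once for the blocks of 3′ ends and for sam1, met26 and SPBC8D2.18c, and leaving shm1 out of the list's median, were chosen after seeing the data.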

Other observations

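The genes around shm1 had few or no cDNAs. Low counts were common, since only 430 of the 2111 genes with a cDNA in any library had enough to be tested. The counts given here for neighbours and for shm2 therefore do not set them apart from other genes. Of the annotated neighbours of shm1, sgd1 and otu1 on the opposite strand had 0 and 2 cDNAs in Mkt1-HTP each. The neighbours mrp10, SPNCRNA.3376 and SPNCRNA.3377 had none in any library. The paralogue shm2, which encodes another serine hydroxymethyltransferase, had 0 cDNAs in all 4 libraries, which allows shares of up to 0.0123% and 0.0112% in Mkt1-HTP. The coding parts of shm1 and shm2 share no stretch of 20 nt, and every window of 30 nt of the shm1 mRNA, 3′ UTR included, occurs once on the 3 chromosomes. Shorter cDNAs, down to 17 nt, were not checked in this way.

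Short motifs were searched on the sense strand of the shm1 3′ UTR and of the last 292 nt of each of the 2129 3′ UTRs of at least that length. AAUAAA was not found in shm1 and was present in 41.4% of regions. AUUUA was found once, at nt 197, and was present in 72.2%. UGUA was not found and was present in 80.2%. UUUUU was found at nt 29 and nt 239, the latter overlapping the bases deleted in both Mkt1-HTP libraries, and was present in 83.1% of regions. These matches describe the letters of the region alone.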
